A study of Drosophila melanogaster with 4 samples.

Results

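Pericentromeric H3K36me3 regions are the regions of the study's series-level list that lie on heterochromatic scaffolds of the fly genome or at the centromere-proximal ends of its assembled arms. H3K36me3 is histone H3 trimethylated at lysine 36, and it was mapped by chromatin immunoprecipitation and sequencing (ChIP-seq) in embryos of the fly Drosophila melanogaster, strain Oregon-R and wild type in genotype, collected at 14 to 16 h. A region belonged to the group if it lay on a sequence whose name ends in Het, or if it overlapped the 1 Mb of an assembled arm nearest the centromere. These 4 windows were the last 1 Mb of 2L, 3L and X and the first 1 Mb of 3R, by the lengths in the file headers. The rule found 249 of 4468 regions, or 5.57%, and used position alone. Of these, 144 lay on the 6 Het scaffolds and 105 in the 4 arm windows. The regions set against them are the 3148 on the rest of 2L, 3L, 3R and X. Arm 2R, chromosome 4 and the unplaced sequence entered only the counts over the whole list.

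All groups share the strain, genotype and age. The labels describe 4 libraries, of which 2 are ChIP libraries and 2 are their inputs, with no word on separate embryo collections, so the spread between replicates may be technical. Each ChIP replicate has its own list of enriched regions, and the series-level list is a further one for the whole series. The lists hold called regions with no read counts, so depth is unknown and only called sequence carries a value. No label gives the sex of the embryos. Values are set against the spread between the replicates. No p-value is given, because an exact two-sided sign-flip test on 2 replicates cannot go below 0.5 and regions of a list are not replicates.

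As background, H3K36me3 is placed on nucleosomes behind elongating RNA polymerase II, in the fly by the methyltransferase Set2, and marks the bodies of transcribed genes. Pericentromeric heterochromatin is rich in satellite repeats and transposon remnants and is packaged with H3K9 methylation and HP1, which favour silencing. Protein-coding genes nevertheless reside there, often with long introns full of repeats, and some of them need the heterochromatic setting for normal expression. The Y chromosome is largely heterochromatic and carries a small set of genes active in male germ cells. The lists measure neither H3K9 methylation nor transcripts, so the label pericentromeric rests on position and was not checked against another mark. Genes are not named, since the gene table used here belongs to release 6 of the genome and the region lists to FlyBase release 5. Coordinates are those of release 5, counted from 1.

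Pericentromeric sequence had less of its length in H3K36me3 regions than the rest of the arms. Regions covered 5.88% of its 13.3 Mb in replicate 1 and 4.87% in replicate 2, against 18.5% and 17.2% of the 93.9 Mb of the rest of the arms. The covered share averaged 5.38% ± 0.719 in pericentromeric sequence and 17.9% ± 0.945 in the rest of the arms (SD, n = 2 each). The ratio was 0.300 ± 0.0244 (SD, n = 2), so the difference was many times the spread between replicates. The series-level list gave 7.05% in pericentromeric sequence and 19.1% in the rest of the arms, a ratio of 0.368. With the higher-scored 50% of each replicate list alone the mean ratio was 0.187. Regions were also sparser, at 14.1 and 12.7 per Mb of pericentromeric sequence in replicates 1 and 2, which is 0.428 and 0.374 times the density in the rest of the arms.

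The scaffolds and the windows differed from each other. Het scaffolds were covered to 3.20% ± 0.630 and the arm windows to 10.4% ± 0.924 (SD, n = 2 each). In the series-level list there were 15.5 regions per Mb on the scaffolds and 26.3 per Mb in the windows. How much of either kind of sequence reads could be placed on is unknown, and its part in these shares was not tested.

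Among the scaffolds, XHet was covered most and 3RHet least. XHet had 10.0% and 9.14% of its 0.204 Mb in regions in replicates 1 and 2, and YHet 6.68% and 4.82% of its 0.347 Mb. 2RHet had 4.03% and 3.23%, 3LHet 4.10% and 2.74%, and 2LHet 3.46% and 3.06%. 3RHet had 1.77% and 1.30%. The means of 2RHet, 3LHet and 2LHet lay between 3.26% and 3.63% and did not differ beyond the spread between replicates, whereas XHet and 3RHet stood apart from their neighbours in both replicates.

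Among the windows, 3R stood apart. Its proximal 1 Mb was covered to 21.5% and 19.6% in replicates 1 and 2, against 18.9% and 17.7% of the rest of 3R. This was the sole scaffold or window of the 10 above the rest of the arms, while the other 9 lay below it in both replicates. The 2L window had 11.6% and 10.2%, against 17.3% and 16.0% in the rest of 2L. The X window had 7.21% and 6.43%, against 19.4% and 17.8% in the rest of X. The 3L window had 4.01% and 2.88%, against 18.4% and 17.2% in the rest of 3L. Replicate 1 covered more than replicate 2 in each of the 10 scaffolds and windows.

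**Figure D1:**
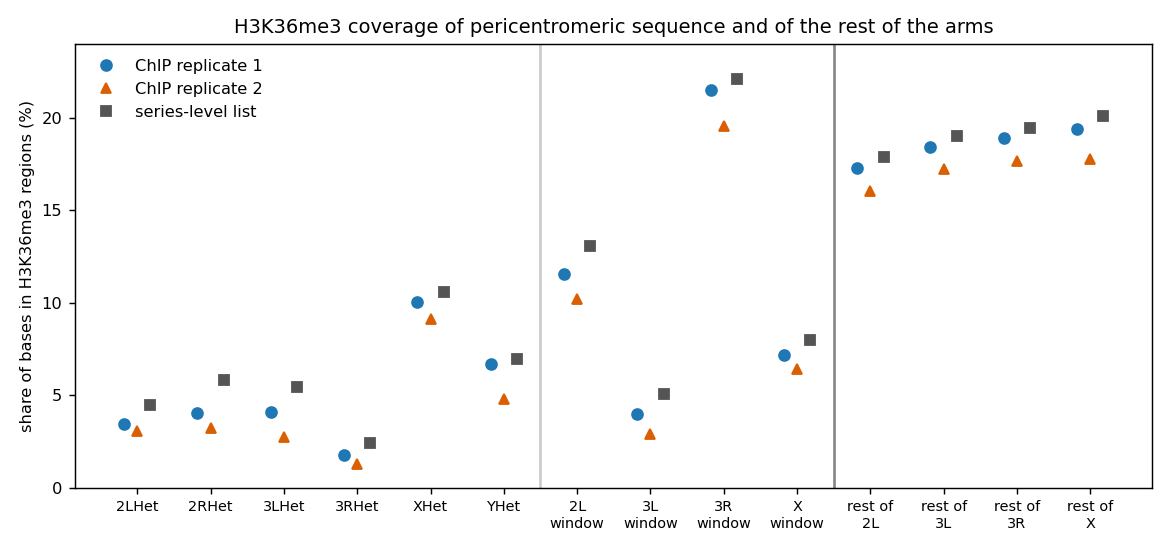
Share of bases lying in H3K36me3 regions (percent, vertical axis) for the 6 Het scaffolds, the 4 proximal 1 Mb windows and the rest of each arm, with 1 point each for ChIP replicate 1, ChIP replicate 2 and the series-level list. The scaffolds lie between 1.30% and 10.6%, and the 3R window alone among the 10 pericentromeric sequences lies above the rest of its arm.

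Set against the other 1 Mb blocks of the same arm, counted from the centromere-proximal end, the X and 3L windows were the lowest blocks of their arms in both replicates, out of 22 and 24 blocks. The 2L window ranked 4 from the bottom of 23 blocks in both. The 3R window ranked 19 from the bottom of 27 blocks in replicate 1 and 18 in replicate 2, and the next block of 3R, covered to 30.1% and 28.3%, ranked 25 in both. The next blocks outward were covered to 9.08% and 8.29% on X, 11.3% and 8.95% on 3L, and 15.1% and 13.4% on 2L. X and 3L thus had low coverage in the second block as well, ranked 2 on X in both replicates and 5 and 4 on 3L.

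Within the windows the regions came in short stretches separated by sequence with none. On X, 6 of the 10 bins of 100 kb held no series-level region, and the highest bin, 500 to 600 kb from the proximal end, had 34.2% of its bases in replicate 1 regions and 29.1% in replicate 2 regions. On 3R, 1 bin of 10 was empty in every list, and the bin 200 to 300 kb from the end reached 54.9% and 54.4% in replicates 1 and 2. On 3L, 2 bins of 10 were empty in the series-level list, against 3 in replicate 1 and 5 in replicate 2. On 2L, 1 bin was empty in the series-level list and 3 in each replicate. Empty bins were not particular to the windows. In the next 1 Mb outward, the series-level list left 6 bins of 10 empty on X, 2 on 3R, 2 on 3L and 3 on 2L.

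**Figure D2:**
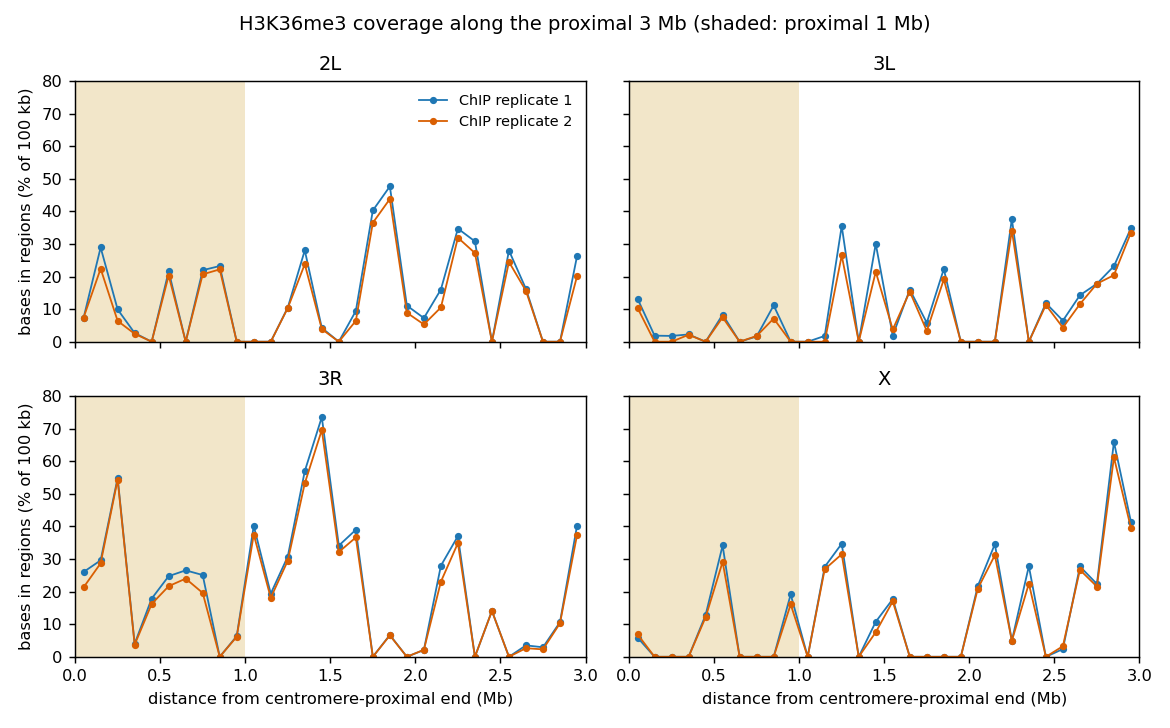
Percent of each 100 kb bin lying in regions (vertical axis) against distance from the centromere-proximal end in Mb (horizontal axis) for 2L, 3L, 3R and X, with lines for ChIP replicates 1 and 2 and shading over the proximal 1 Mb. The replicates follow each other, and the first bin holds regions on every arm. On 3R each bin up to 800 kb holds regions, and X has 6 empty bins of 10 in the shaded window.

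The edge of the window fell in a gap on 3 arms. The outermost members of the 2L, 3L and X windows lay 987, 970 and 947 kb from the proximal end, with scores of 0.36, 0.51 and 1.88. The first regions beyond the edge lay 1249, 1087 and 1160 kb from it, with scores of 1.61, 0.65 and 1.03. On 3R the member from 996542 to 1010814 crossed the edge, with a score of 1.77, and the next region began 1026 kb from the end with a score of 1.04. The score is the authors' own value for each region, of unstated scale, and is used only to rank and describe regions within a list.

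Many members formed runs. With gaps of up to 20 kb allowed, the 249 members fell into 90 runs, of which 40 held a single member and 25 held 4 or more. The 25 longer runs held 146 members. Of these members 98, or 67.1%, overlapped a region of both replicates, against 15 of the 40 lone members, or 37.5%. The share over the whole series-level list was 85.5%, and no such split is given for the rest of the arms. None of the 51 members under 1500 bp was found in both replicates, and the part of width in this contrast was not tested. The longest run lay on 3R from 189766 to 314440, with 8 regions over 125 kb, all found in both replicates. A run of 11 regions on 2RHet from 3132484 to 3220630 spanned 88.1 kb and was covered to 56.5%, with 6 regions found in both replicates and 3 in neither. The densest long run of the Het scaffolds lay on 3LHet from 2241974 to 2269134, where 5 regions took up 91.9% of 27.2 kb. On X, 10 regions lay between 21846188 and 21908812, of which 7 were found in both replicates. Of the 7 regions on 2L between 22711606 and 22780402, 1 was found in both replicates and 5 in neither.

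Outside the runs lay long stretches without a series-level region. The longest was 908 kb on 2RHet, from 1335393 to 2243119. On 3RHet the longest was 626 kb, at the scaffold's start, and in the X window it was 438 kb, from 21945171 to 22382679. The longest such stretch of the 3L window was 277 kb, and those of the 2L and 3R windows were 168 and 170 kb. No such lengths are given for the rest of the arms, so the stretches are not shown to be particular to members.

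The Y scaffold held its regions in 1 place. All 7 YHet regions lay between 297366 and 344628, a stretch of 47.3 kb on a scaffold whose first 297 kb held none. Every one of them was found in both replicates. Their widths ran from 2455 to 5047 bp and their scores from 1.12 to 1.89. The region from 297366 to 302412 matched a replicate 1 region of 5182 bp with a score of 1.83 and a replicate 2 region of 2390 bp with a score of 2.54. That score of 2.54 was the highest of any pericentromeric region of replicate 2. The region from 339722 to 344628 matched a replicate 1 region of 4694 bp scored 1.73 and a replicate 2 region of 3577 bp scored 2.28. Coverage of YHet was lower in replicate 2 than in replicate 1, while the number of regions was 7 in each.

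The X and 2L scaffolds are short and held few regions in number. Their series-level densities were 14.7 and 16.3 per Mb, against 15.5 per Mb over all Het scaffolds. XHet held 3 regions within 56854 to 87514, and the remaining 117 kb to the scaffold's end held none. The widest, from 56854 to 69696, was 12843 bp with a score of 1.31. It matched a single region of 11713 bp in replicate 1, while replicate 2 had 2 regions there with 10524 bp between them. The other XHet regions, from 76110 to 81684 and from 84330 to 87514, had scores of 1.86 and 1.59, and each matched 1 region in each replicate. 2LHet held 6 regions, of which 4 were found in both replicates and 2 in neither. Its leading region, from 165432 to 169558, had a score of 1.92 and matched 1 region in each replicate, with scores of 1.88 and 1.97.

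Of the 5 members found in both replicates with a score of 2 or more, 4 lay in the arm windows, on 3R and 2L. On 3R, the region from 611074 to 623492 was 12419 bp wide with a score of 2.29, and replicates 1 and 2 gave scores of 2.31 and 2.42 there. On 2L, the region from 22163968 to 22169288 was 5321 bp wide with a score of 2.26, against 2.29 and 2.27 in the replicates. The regions on 3R from 229556 to 234522 and on 2L from 22471966 to 22480258 had series-level scores of 2.16 and 2.03. The leading regions of the X and 3L windows were weaker, at 1.88 from 21470386 to 21475546 and 1.75 from 23708246 to 23712822. The remaining member of the 5 lay on 3LHet from 594050 to 601864, with a score of 2.10, and was chosen after its values were seen. On 3RHet the leading region, from 1804058 to 1807614, had a score of 1.43, with 1.45 and 1.49 in the replicates.

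The 5 widest members of the arm windows were all on 3R. They ran from 148740 to 166608 (17869 bp), from 254540 to 270650 (16111 bp), from 996542 to 1010814 (14273 bp), from 204814 to 218934 (14121 bp) and over the leading 3R region named above. Replicate 1 covered at least 99.3% of each of these 5, and replicate 2 from 82.8% to 98.6%. Replicate 2 split the widest into 3 regions. Of the member from 996542 to 1010814, 10814 bp lay outside the window. On the Het scaffolds the widest members after the XHet one were on 2RHet. Their widths were 12103, 11459, 10403 and 9711 bp and their scores 1.25, 1.35, 0.57 and 0.98. The member of 10403 bp was covered to 81.5% by replicate 1 regions and to 72.3% by 4 replicate 2 regions.

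As a group, members were narrower and lower-scored than the rest. In the series-level list the median width was 2943 bp for pericentromeric regions and 4655 bp for the rest of the arms, a difference of -1712 bp. Replicate 1 gave a difference of -1250 bp, with medians of 3363 bp for pericentromeric regions and 4613 bp for the rest. Replicate 2 gave -1112 bp, with medians of 3121 bp for pericentromeric regions and 4233 bp for the rest. The median score of pericentromeric regions was 0.87 in the series-level list, against 1.51 in the rest of the arms. It was 1.06 in replicate 1, against 1.58 in the rest of the arms, and 1.19 in replicate 2, against 1.57. The score differences were -0.63, -0.51 and -0.38 in these lists. Among the higher-scored 50% of the series-level list the difference was -0.013, but this cut on score itself limits how far the medians can differ. Members of the windows had a series-level median of 3941 bp and 1.18, and those of the Het scaffolds 2420 bp and 0.74. The quartiles of width on the scaffolds were 1478 and 4102 bp.

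The score difference was also present among wide regions. Among regions of 5000 bp or more the median score was 1.51 for 62 members and 1.78 for 1446 regions of the rest of the arms. Among regions of 3000 to 4999 bp it was 1.09 for 61 members and 1.45 for 981 regions of the rest. Between 1500 and 2999 bp it was 0.50 for members and 0.56 for the rest. Under 1500 bp the order turned, with 0.64 for 51 members and 0.39 for 112 regions of the rest. The members were not uniform. At 5000 bp or more the median was 1.67 in the windows and 1.06 on the Het scaffolds, and from 3000 to 4999 bp 1.18 and 0.96. In the narrower classes the scaffolds were the higher, at 0.51 against 0.46 between 1500 and 2999 bp and 0.67 against 0.49 under 1500 bp.

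Fewer members than other regions were found in the replicate lists. A region counted as found when at least 1 base overlapped a region of that replicate. Of the 249 members, 144 (57.8%, 95% Wilson interval 51.6 to 63.8) were found in both replicates, against 85.5% of the whole series-level list and 2825 of 3148 (89.7%, interval 88.6 to 90.8) in the rest of the arms. Replicate 1 held 178 members (71.5%), against 92.2% of the whole list, and replicate 2 held 150 (60.2%), against 86.5%. Neither replicate held 65 members (26.1%, interval 21.0 to 31.9), against 6.76% of the whole list and 115 regions (3.65%) of the rest of the arms. Another 34 members were found in replicate 1 alone and 6 in replicate 2 alone. These intervals reflect counting error alone and take each region as independent.

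The scaffolds and windows again differed. On the Het scaffolds 68 of 144 members (47.2%) were found in both replicates, and in the windows 76 of 105 (72.4%). The 3R window reached 35 of 39 (89.7%), the same share as the rest of the arms to 3 digits. The X window followed with 14 of 18, the 2L window with 20 of 32 and the 3L window with 7 of 16. Among the larger scaffolds the counts were 12 of 24 on 3RHet, 22 of 52 on 2RHet and 20 of 52 on 3LHet, while all 3 XHet and all 7 YHet regions were found in both.

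**Figure D3:**
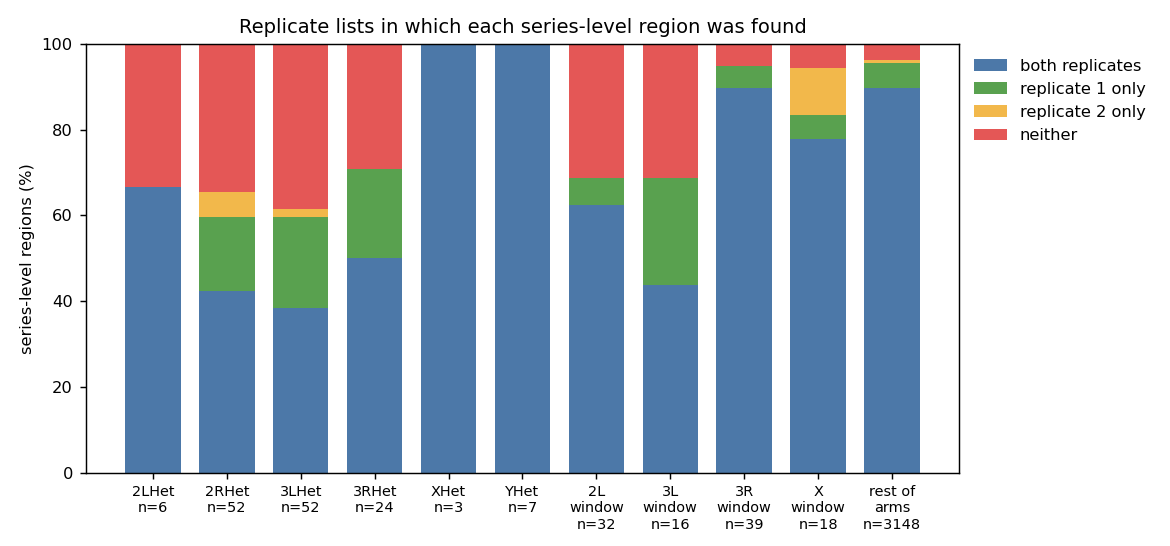
Percent of series-level regions (vertical axis) found in both replicates, in 1 replicate alone or in neither, for each Het scaffold, each proximal window and the rest of the arms, with the number of regions under each bar. Found in both ranges from 38.5% on 3LHet to 100% on XHet and YHet, against 89.7% in the rest of the arms.

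Narrow regions were found less often in both groups, and members held more of them. Regions under 1500 bp made up 20.5% of members and 3.56% of the rest of the arms, and none of the 51 members or 112 other regions of that width was found in both replicates. Between 1500 and 2999 bp, 26 of 75 members (34.7%, interval 24.9 to 45.9) were found in both, against 411 of 609 (67.5%, interval 63.7 to 71.1) in the rest. From 3000 to 4999 bp the counts were 57 of 61 (93.4%, interval 84.3 to 97.4) and 969 of 981 (98.8%, interval 97.9 to 99.3). At 5000 bp or more they were 61 of 62 (98.4%) and 1445 of 1446 (99.9%). From 3000 to 4999 bp, members found in both numbered 29 of 29 in the windows and 28 of 32 on the Het scaffolds. At 5000 bp or more they numbered 38 of 38 and 23 of 24, so the members missed at these widths were all on the scaffolds. Between 1500 and 2999 bp the windows (9 of 26) and scaffolds (17 of 49) were alike. The members of 5000 bp or more were thus found as a rule in both replicates. The exception was a 2RHet region of 7115 bp from 828328 to 835442, which overlapped only replicate 1 regions.

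**Figure D4:**
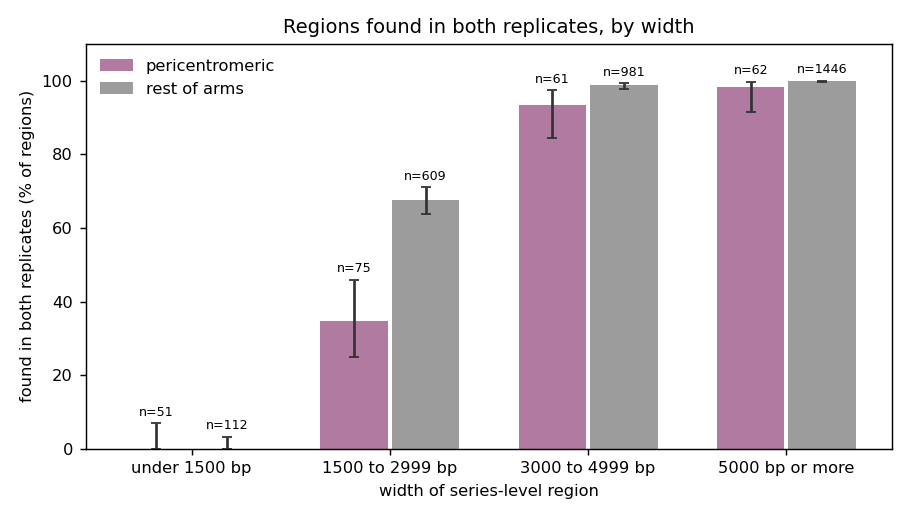
Percent of series-level regions found in both replicates (vertical axis, bars with 95% Wilson intervals) in 4 width classes (horizontal axis), for pericentromeric regions and for the rest of the arms. The pericentromeric share is 0% under 1500 bp and 98.4% at 5000 bp or more, against 0% and 99.9% in the rest of the arms, and the groups lie farthest apart between 1500 and 2999 bp, at 34.7% and 67.5%.

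By bases, the replicates held more of the members than by number. Replicate 1 covered 82.9% and replicate 2 69.2% of the bases of all members, against 96.7% and 89.8% in the rest of the arms. The 65 members in neither replicate made up 10.1% of member bases, against 0.872% for such regions in the rest of the arms. Their share was 15.1% on the Het scaffolds and 5.45% in the windows. Of the pericentromeric bases covered in either replicate, 77.7% were covered in both, against 91.0% in the rest of the arms. That share was 67.4% on the Het scaffolds, with 63.0% on 3LHet, 65.0% on 2RHet and 91.0% on XHet, and 85.8% in the windows, with 69.8% on 3L and 89.8% on 3R.

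Read from the replicate lists, the asymmetry had a direction. Of 187 pericentromeric regions of replicate 1, 147 (78.6%) overlapped a replicate 2 region, and of 169 of replicate 2, 162 (95.9%) overlapped a replicate 1 region. In the rest of the arms the shares were 93.8% and 99.2%. The depths of the ChIP libraries are unknown, and their part in this was not tested. Where a series-level region matched 1 region in each replicate, the replicate 1 region was the wider in 114 of 126 pericentromeric cases (90.5%) and in 2175 of 2495 cases of the rest (87.2%). The replicate 2 width was a median 0.926 times that of replicate 1 for members (middle 50% from 0.802 to 0.962) and 0.957 times for the rest (0.908 to 0.984). Scores of these 126 matched members ranked alike across regions, with Pearson r = 0.93 and Spearman rho = 0.93, given as a description over regions of shared libraries.

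The highest scores among members belonged to regions that neither replicate list held. Of the 14 members with a score of 2 or more, 9 were found in neither replicate and 5 in both. In the rest of the arms all 412 regions with such scores were found in both. Such regions were not confined to members, since the whole list held 27 of 587 in neither replicate, of which 17 lay on the unplaced sequence U and 1 on chromosome 4. A score of 1 or more occurred in 19 of the 65 members found in neither, and in 0 of the 115 such regions of the rest, whose highest score was 0.68. The top of the group was 3.09, shared by 2RHet from 319848 to 320848, 2RHet from 2439424 to 2440424 and 2L from 22711606 to 22712606. All 3 shared rank 7 among the 4468 regions. Next came 3LHet from 1506878 to 1507878 and from 2203136 to 2204136, both at 2.92, and 2RHet from 599232 to 600292 at 2.43.

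These regions were as narrow as any in the list. The first 5 were each 1001 bp wide, the minimum of the series-level list, and the sixth was 1061 bp. The narrowest region was 1309 bp in replicate 1 and 1301 bp in replicate 2, so neither list held a region of that size anywhere. Members of 1100 bp or less numbered 20 (8.03% of members), none found in either replicate, with a median score of 1.61. The rest of the arms held 30 such regions (0.953%), with a median score of 0.43 and a highest score of 0.68. Of these 30, 25 were also found in neither replicate, as were 84 of the 91 such regions of the whole list. Over all 65 members found in neither replicate, score fell as width rose (Spearman rho = -0.59), whereas over the 144 found in both it rose with width (rho = 0.47). The signs were the same in the rest of the arms, at -0.28 over 115 regions in neither and 0.62 over 2825 in both. These correlations are descriptions across regions of a single list. The classes themselves depend on width, since in both groups no region of 5000 bp or more was found in neither replicate.

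**Figure D5:**
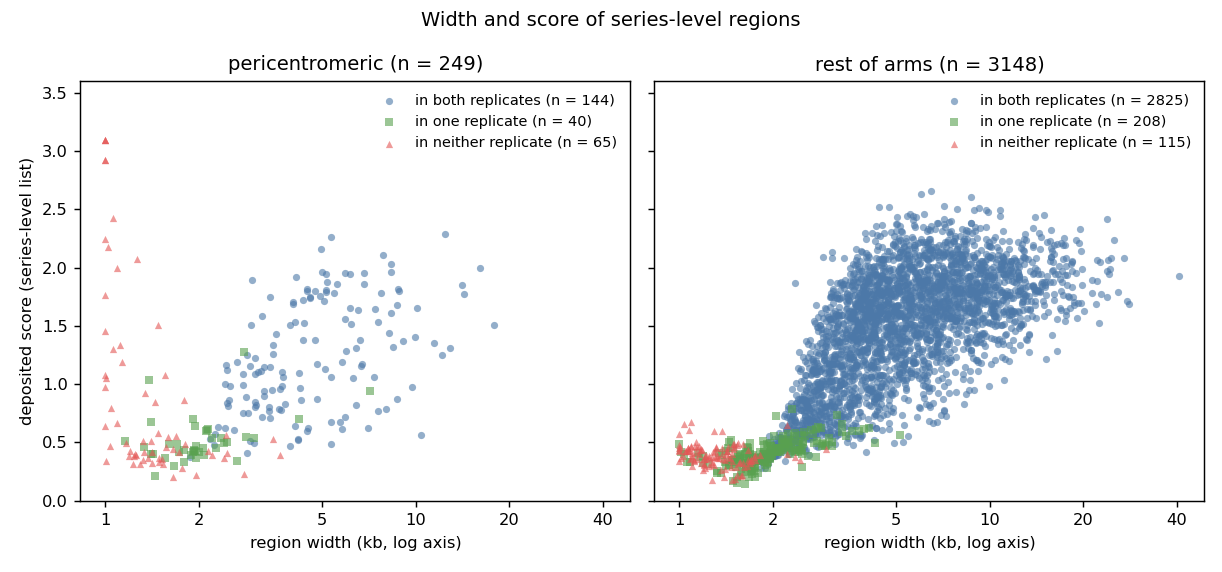
Deposited score (vertical axis) against width in kb (horizontal log axis) for series-level regions of pericentromeric sequence and of the rest of the arms, coloured by whether a region was found in both replicates, in 1 or in neither. Members in neither replicate include regions at the minimum width of 1001 bp that reach a score of 3.09, whereas such regions in the rest of the arms reach 0.68.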

How the data were processed

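H3K36me3 ChIP and input libraries of 14 to 16 h embryos are described, and region lists of both ChIP replicates and of the series were used. The submitters' processing notes name Bowtie 0.12.7, and coordinates are FlyBase release 5, per the file headers. No source used here gives the caller, its threshold or the making of the series-level list. The authors deposited 1 score per region, of unstated scale. Depth is unknown.

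Computation used pandas 2.3.3, scipy 1.17.1 and numpy 2.4.6 under Python 3.11.15, and drawing used matplotlib 3.10.9. Covered share is the percent of header length inside regions. In each list 1 region ran past the end of 3L, by 1007 bp (series-level), 922 bp (replicate 1) and 823 bp (replicate 2), and those bases were left out. A region crossing a window edge counted whole as a member, but coverage stopped at the edge. Interval counting was checked on made-up intervals. Values per replicate are mean ± SD (n = 2), and shares of regions have 95% Wilson intervals. No test was run.

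Named regions were the 5 highest-scored and 5 widest members on Het scaffolds and in windows, the highest-scored of each scaffold and window, and the 3 highest-scored in neither replicate. Regions named beyond these, for the Y, X and 2L scaffolds, runs, gaps and single exceptions, were chosen after their values were seen. The members and lists were chosen with earlier results of these data known. Alternatives were higher-scored regions, merging, a stricter overlap, other window sizes, leaving out YHet or a replicate, membership by midpoint and exchange of lists.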

Additional observations from a re-analysis of the deposited data

Results flagged for a closer look

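The proximal windows differed from their own arms in opposite directions. The 3R window exceeded the rest of 3R by 2.25 percentage points of covered sequence on average over the replicates (2.59 in replicate 1 and 1.91 in replicate 2). The other windows lay below the rest of their arms in both replicates, with mean differences of -5.79 points on 2L, -14.4 points on 3L and -11.8 points on X. This contrast was flagged because both replicates moved one way on 3R and the opposite way on 2L, 3L and X. Among the 1 Mb blocks of its own arm the 3R window ranked 19 and 18 from the bottom of 27 in replicates 1 and 2, with higher blocks on the same arm. The 2L window ranked 4 of 23 in both, and the 3L and X windows were the lowest of theirs. The difference between arms was not tested.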

How the results depend on the processing

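The 6 main results were recomputed under 54 combinations of result and setting. The differences in width and in score kept their sign in every setting. The ratio and the shares cannot be negative, so a check on sign could not fail for them. The highest ratio in any setting was 0.430. By size, 28 values moved by less than the replicate SD or stayed in the Wilson interval, and 26 moved farther. Keeping the higher-scored 50% of each list lowers coverage and narrows the range of scores by construction. This setting gave a coverage ratio of 0.187, 0.630% on Het scaffolds, 5.96% in windows and 66.7% of members in both replicates. Its differences were -1427 bp in width and -0.013 in score. Merging within 1 kb gave a width difference of -2321 bp. Windows of 0.5 Mb gave a ratio of 0.251 and -2052 bp. Windows of 2 Mb gave 0.430, 13.0% in windows, 66.1% of members in both, -1207 bp and -0.43 in score. With the series-level list the ratio was 0.368, Het scaffolds 4.89% and windows 12.1%. In the replicate 1 list 78.6% of members met the other replicate, with differences of -1250 bp and -0.51. In replicate 2 these were 95.9%, -1112 bp and -0.38. Without either replicate, the share of members found in the one left ranged from 60.2% to 71.5%. Regions of 1500 bp or more, a setting added after the data were seen, gave 71.2% and -1205 bp. The causes were not tested beyond what a setting's construction fixes. No paired analysis was possible because ChIP and input share replicate numbers but the inputs have no values here, and no result comes from a test. Leaving out 1 of 2 replicates moves a mean by less than their SD by construction. Without read counts, weak enrichment outside the lists cannot be told from none.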

Other observations

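Some narrow members found in neither replicate had exactly equal scores. The score 3.09 of the leading members occurred 5 times in the series-level list and 2.92 occurred 3 times. Of the 20 highest scores of the series-level list, 5 were members, all found in neither replicate, and 0 lay in the rest of the arms. The other 15 lay outside both groups, 9 on the unplaced sequence U and 6 on chromosome 4. Among the 100 highest, 6 were members, 37 lay in the rest of the arms and 57 outside both groups. In the whole series-level list 91 regions were 1100 bp or narrower, of which 84 were found in neither replicate. Of these narrow regions 18 had a score of 2 or more, with 8 among members, 0 in the rest of the arms and 10 on U.

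Every start in the series-level list was an even number, against 49.8% of starts in replicate 1 and 50.3% in replicate 2.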
